A study of Caenorhabditis elegans with 7 samples.

Results

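Expression of 4 genes of axon outgrowth and neuronal migration, unc-44, unc-76, mig-13 and C38D4.1, was described in DD motor neurons of Caenorhabditis elegans. The genes were found by their public names in a table the authors deposited, which lists the probe sets that were higher in these neurons, and they have 5 probe sets there, 2 of them for unc-44. The table names 201 genes on 222 of its 236 probe sets, and the array holds 22625 probe sets. Probe sets could be named only from this table, so any other probe sets of the 4 genes could not be looked up. A gene that could not be named here has no name in the table, but may still be on the array. The listed probe sets had been selected on the same arrays. The selection used the size of their difference between DD neurons and all cells and that difference relative to its error. It fixed the direction of all differences given here. The differences are therefore a description, with no test.

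The DD neurons use GABA and innervate body wall muscle from the ventral nerve cord, and they later rewire their synapses. There were 4 samples of DD neurons and 3 samples of all cells, 1 Affymetrix array each, all from first-stage (L1) larvae that hatched in buffer without food at 20 °C and stopped growing. The DD samples came from strain CZ8332, which carries the transgene juIs223 on chromosome IV with mCherry under the ttr-39 promoter and GFP under the ttx-3 promoter, and cells were sorted for mCherry per the series design, although a label of these samples names GFP. The all-cell samples came from the wild-type strain N2. Strain, sort and cell type changed together and cannot be told apart. In both groups 5 to 10 ng of total RNA was amplified before labelling. Whether the replicates were separate cultures is not stated in the labels, and the spread between arrays may be technical.

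The products of these genes, or of their relatives, have different known roles. UNC-44 is an ankyrin, an adaptor that couples membrane proteins to the spectrin skeleton under the membrane, and worms without it have misguided axons. UNC-76 belongs to the FEZ family of kinesin cargo adaptors and is needed for axons to bundle and extend. MIG-13 is a transmembrane protein known for directing migrating neuroblast descendants toward the head. C38D4.1 is enu-3.2 in the RefSeq gene table of assembly WBcel235, which holds 5 other numbered members of the enu-3 family; ENU-3 itself is known for a part in motor axon outgrowth when netrin signalling is impaired.

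The 7 arrays were alike in overall level, with medians of 5.21 to 5.38 and 25th percentiles of 3.58 to 3.84 over the 22548 probe sets that are not array controls, on the log2 scale of the deposited values. For the labelled cell type, markers of D-type GABA neurons were looked up. Of 8 markers 7 could be named, and they too had been selected as higher, so their direction could not fail as a check. By 1 probe set per gene their log2 differences (DD neurons minus all cells) were 1.51 to 3.48 with a median of 2.92. Over all 9 of their probe sets they reached 3.73. The 3.48 was that of ttr-39, whose promoter drives the mCherry used for the sort. Of 24 markers of muscle, pharynx, intestine, germ line, epidermis, glia and other neurons, 4 could be named: ttn-1, acdh-1, pgl-1 and ptr-24, with log2 differences of 1.03 to 1.86 by 1 probe set per gene, while the other 2 probe sets of ttn-1 had 1.94 and 2.11. These 4 too had been selected as higher, so nothing is read from their direction. The levels of the markers that could not be named are not known. The summed log2 level of the 4 genes was 27.76 to 30.32 on the DD arrays and 23.10 to 24.36 on the all-cell arrays. Singly, the groups overlapped for acdh-1 (lowest DD array 5.13, highest all-cell array 5.35) and pgl-1 (5.14 and 5.20). They did not overlap for ttn-1 or ptr-24, as for 6.98% of all tested probe sets and, under the selection, for 222 of the 236 listed ones. The part of other cells in the results was not tested. The 77 array controls had a median log2 difference of 0.34, and 75 of them were higher in DD neurons. Their array medians were 4.63, 4.26, 4.26 and 4.02 on DD replicates 1 to 4 and 4.17, 3.93 and 4.01 on all cells replicates 1 to 3. DD replicate 1 was thus the highest, also in its 25th percentile (3.84), while DD replicate 4 lay within the range of the all-cell arrays.

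In all 5 probe sets the lowest DD array exceeded the highest all-cell array, which was so for 6.98% of all tested probe sets and, under the table's selection, for 222 of the 236 listed ones, so nothing is read from it. The differences were alike in size, from 1.02 to 1.20 on the log2 scale with a median of 1.09, near the lower edge of the table at 2-fold. The median of the 236 listed probe sets was 1.24 and that of all tested probe sets 0.06. The members differed in their spread within groups, which was smallest for mig-13. They also differed in level, with DD means from 7.10 for mig-13 to 11.16 for unc-44 by 171738_x_at. The values in bulk RNA do not tell more cells of a type from more RNA per cell.

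**Figure D1:**
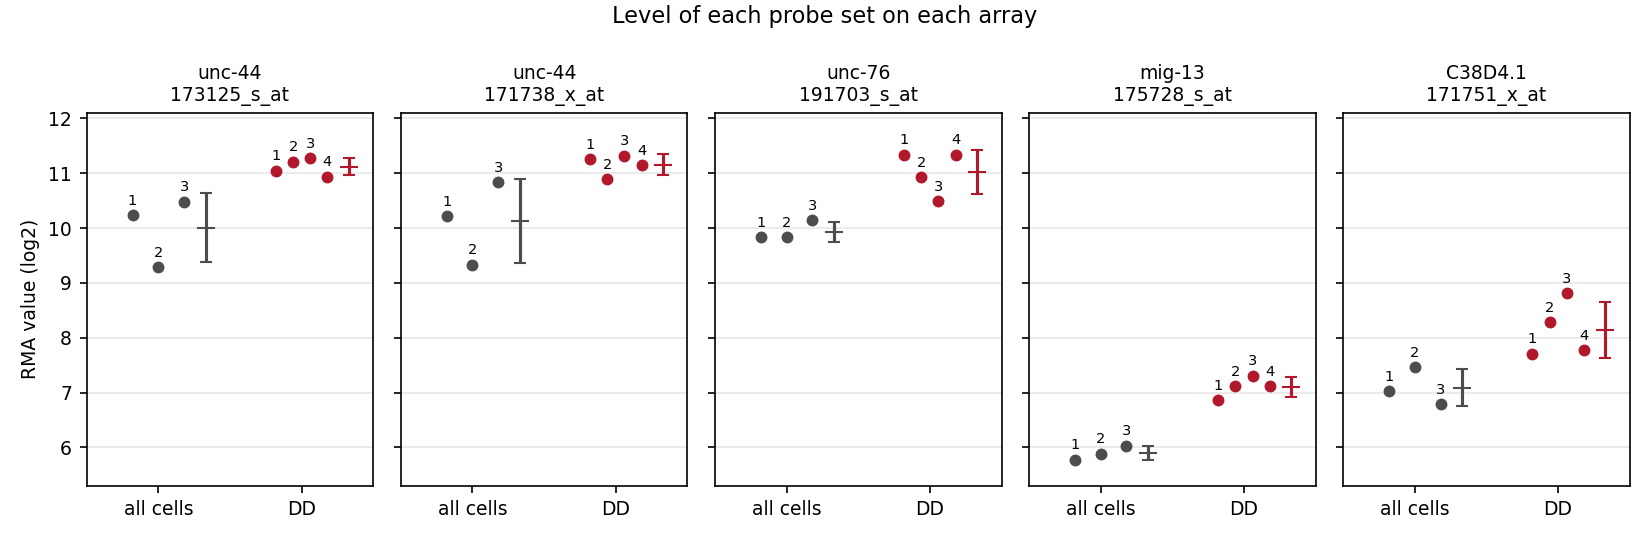
Deposited RMA values (log2, vertical axis) of the 5 probe sets on the 3 all-cell arrays (grey) and the 4 DD arrays (red), with replicate numbers beside the points. Bars are mean and SD of each group. The groups do not overlap in any panel, as in 6.98% of all tested and 222 of the 236 listed probe sets. All cells replicate 2 is the low point of both unc-44 panels, at 9.29 and 9.33.

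The ankyrin gene unc-44 had 2 probe sets in the authors' table, 173125_s_at and 171738_x_at, called the s and the x probe set here. In the naming of the manufacturer, an s marks a probe set shared by several transcripts and an x one with probes that may bind other sequences, so separate values of such probe sets are less certain. The limit holds for the other members too, since the probe sets of unc-76 and mig-13 carry an s and that of C38D4.1 an x. The s probe set read 11.05, 11.21, 11.28 and 10.94 on DD replicates 1 to 4 and 10.24, 9.29 and 10.48 on all cells replicates 1 to 3 (log2). The DD arrays lay close together, while all cells replicate 2 lay well below the other all-cell arrays, and the nearest arrays of the 2 groups were 0.46 apart. The means were 11.12 ± 0.15 (SD, n = 4) and 10.00 ± 0.63 (SD, n = 3), which gave a log2 difference of 1.12 ± 0.32 (SE), or 2.17-fold.

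The x probe set of unc-44 read 11.26, 10.89, 11.32 and 11.15 on the DD arrays and 10.22, 9.33 and 10.84 on the all-cell arrays. Here DD replicate 2 and all cells replicate 3 came within 0.05 of each other, so the groups were barely separate. The log2 difference was 1.02 ± 0.38 (SE), or 2.03-fold, from means of 11.16 ± 0.19 (SD, n = 4) and 10.13 ± 0.76 (SD, n = 3). Both probe sets of unc-44 thus had the wide spread among the all-cell arrays, with ranges of 1.19 and 1.51 against 0.34 and 0.43 among the DD arrays.

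The size of the unc-44 difference rested on all cells replicate 2. Without that array it was 0.76 ± 0.14 (SE) by the s probe set and 0.62 ± 0.24 (SE) by the x probe set, both under 2-fold. Without all cells replicate 3 it was 1.36 and 1.38. Leaving out any DD array kept it between 0.97 and 1.18 over both probe sets. Against each other the probe sets differed by 0.09 in their log2 difference, and on a single array by at most 0.36, on all cells replicate 3. Their profiles over the 7 arrays had a root mean square (RMS) difference of 0.20 (log2) once each was centred on its own mean. Among the other 22547 probe sets ordered by that measure, the s probe set ranked 6 from the x probe set, and the x probe set ranked 11 from the s probe set. That measure includes the group difference, for which both had been selected. With values centred on group means instead, the ranks were 62 and 190.

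The FEZ family gene unc-76 read 11.34, 10.93, 10.49 and 11.34 on the DD arrays and 9.83, 9.83 and 10.14 on the all-cell arrays, by 191703_s_at. Here the all-cell arrays lay close together and the DD arrays were spread, with replicate 3 the lowest and replicates 1 and 4 the highest. The means were 11.02 ± 0.41 (SD, n = 4) and 9.93 ± 0.18 (SD, n = 3), a log2 difference of 1.09 ± 0.26 (SE) or 2.13-fold, and the nearest arrays were 0.35 apart. Without DD replicate 3 the difference was 1.27 ± 0.17 (SE), and it was 0.99 without DD replicate 1 or 4.

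The migration gene mig-13 read 6.86, 7.11, 7.31 and 7.11 on the DD arrays and 5.77, 5.88 and 6.03 on the all-cell arrays, by 175728_s_at. Both groups were tight, with ranges of 0.46 and 0.26, and they stood 0.83 apart, the widest gap among the 5 probe sets. The means were 7.10 ± 0.19 (SD, n = 4) and 5.89 ± 0.13 (SD, n = 3), a log2 difference of 1.20 ± 0.13 (SE) or 2.30-fold. By size this difference ranked 144 of the 236 listed probe sets, and by its ratio to the SE it ranked 18. Leaving out any 1 of the 7 arrays kept it between 1.13 and 1.28. Its all-cell values lay not far above the array medians, and the deposited values carry no detection call, so its fold is not exact.

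The gene C38D4.1 (enu-3.2) read 7.71, 8.28, 8.81 and 7.77 on the DD arrays and 7.02, 7.46 and 6.79 on the all-cell arrays, by 171751_x_at. The DD arrays had the widest range of the 5 probe sets, 1.10, with replicate 3 the highest and replicates 1 and 4 close together at the low end, of which replicate 1 was 0.25 above all cells replicate 2. The means were 8.14 ± 0.51 (SD, n = 4) and 7.09 ± 0.34 (SD, n = 3), a log2 difference of 1.06 ± 0.35 (SE) or 2.08-fold. Without DD replicate 3 it was 0.83 ± 0.27 (SE), under 2-fold, and without all cells replicate 2 it was 1.24. By its suffix this probe set may bind other sequences, and how far other enu-3 family transcripts contribute was not tested. Of the 8 names on the enu-3 family list, this gene was the one that could be named.

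**Figure D2:**
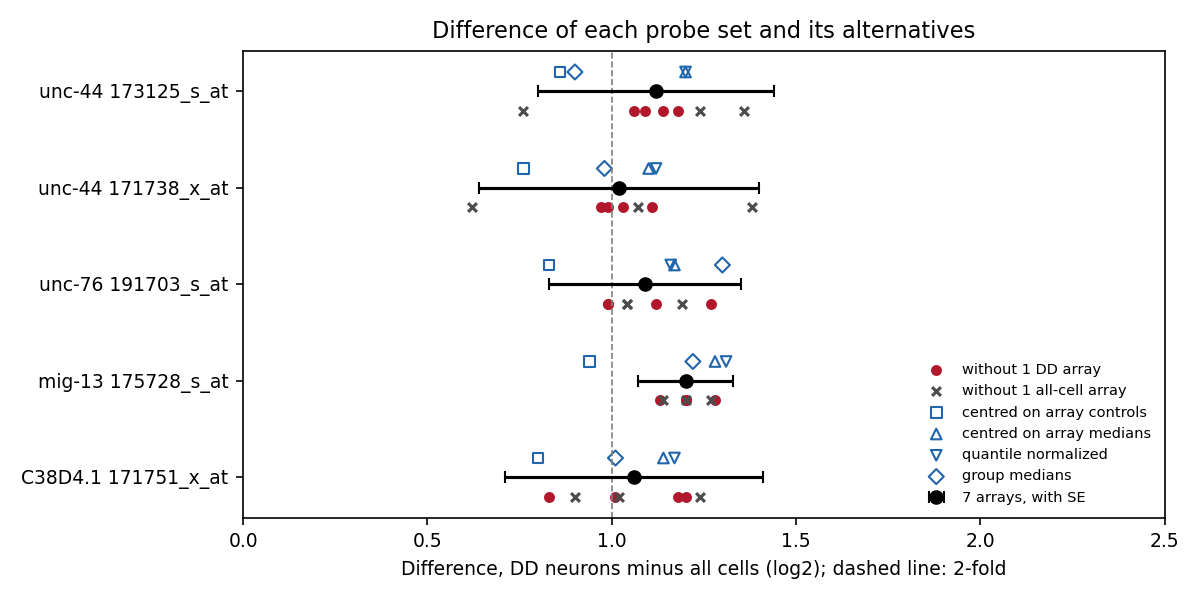
Log2 difference (DD neurons minus all cells, horizontal axis) of each probe set with its SE (black), without each array in turn (red for DD arrays, grey crosses for all-cell arrays) and under other scalings or with group medians (blue). The dashed line marks 2-fold, and without all cells replicate 2 the unc-44 values are 0.76 and 0.62.

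Scaling moved all 5 differences together. With each array centred on the median of its array controls, which shifts the median of all tested probe sets by -0.26, they were 0.86 and 0.76 for unc-44, 0.83 for unc-76, 0.94 for mig-13 and 0.80 for C38D4.1. All were then under 2-fold and still above 0. The shift rests in part on DD replicate 1, which had the highest control median, 4.63. Centred on array medians they were 1.10 to 1.28, and after quantile normalization 1.12 to 1.31.

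**Figure D3:**
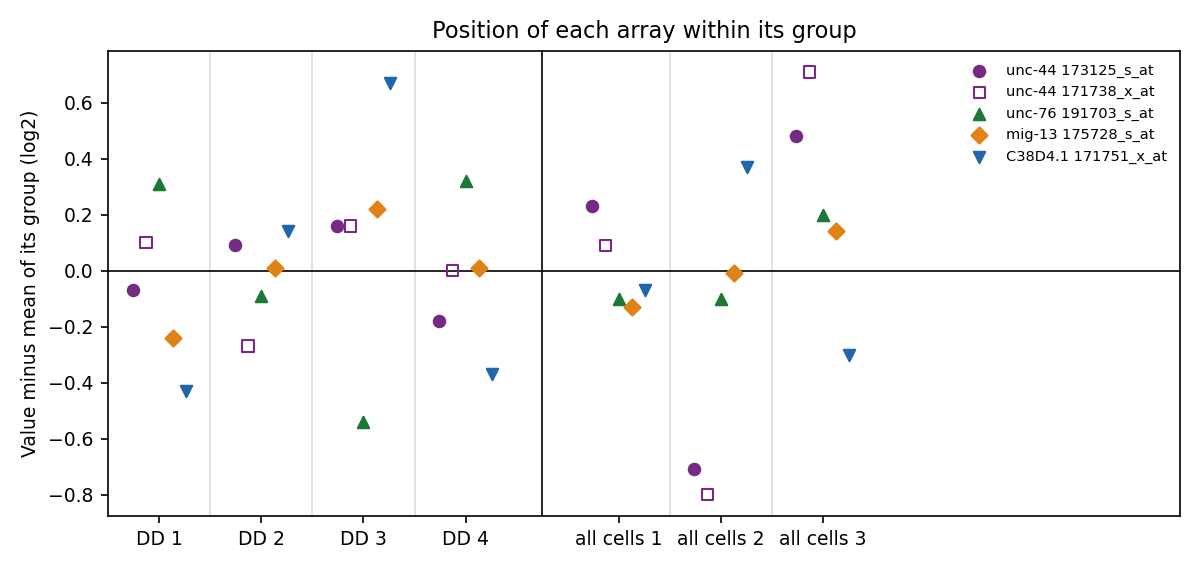
Value of each array minus the mean of its group (log2, vertical axis) for the 5 probe sets, with the 4 DD arrays left of the black line and the 3 all-cell arrays right of it. On DD replicate 3, C38D4.1 was at 0.67 and unc-76 at -0.54, and on all cells replicate 2 both unc-44 probe sets were the low points, at -0.71 and -0.80.

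Within the groups the 4 genes did not share 1 order of arrays. On DD replicate 3, C38D4.1 stood 0.67 above its group mean, mig-13 0.22 and both unc-44 probe sets 0.16, while unc-76 stood at -0.54. The genes unc-76 and C38D4.1 lay on the same side of their group means on 1 of the 7 arrays. The unc-44 probe sets lay on the same side on 5 of the 7. These positions were not used to choose the genes by name, but the table's selection did use the spread within groups, so they are given as a description.

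The authors' table holds probe sets of at least 2-fold with a difference large against its SE. The smallest log2 difference on it was 1.00, and 113 probe sets at 2-fold or more were not on it. The smallest ratio of difference to SE on it was 2.61, and the largest off it at 2-fold or more was 2.60. The x probe set of unc-44, with a ratio of 2.68, ranked 231 of 236 by that measure and was the member nearest to the edge. The ratios of the others were 3.05 for C38D4.1, 3.53 for the other unc-44 probe set, 4.28 for unc-76 and 9.39 for mig-13. Over all tested probe sets 1.55% were at least 2-fold higher in DD neurons.

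By limma over all tested probe sets, 1 of the 5 member probe sets, that of mig-13, passed an adjusted p under 0.05 with DD neurons higher, against 0.191% of all tested, 43 of 22548. The table used the same contrast, so nothing is read from this count. The mig-13 call was absent under 10 of 13 alternatives, among them leaving out any array. With DD neurons lower 51 probe sets passed (0.226%), and with arrays centred on their medians the split was 47 higher and 28 lower.

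**Figure D4:**
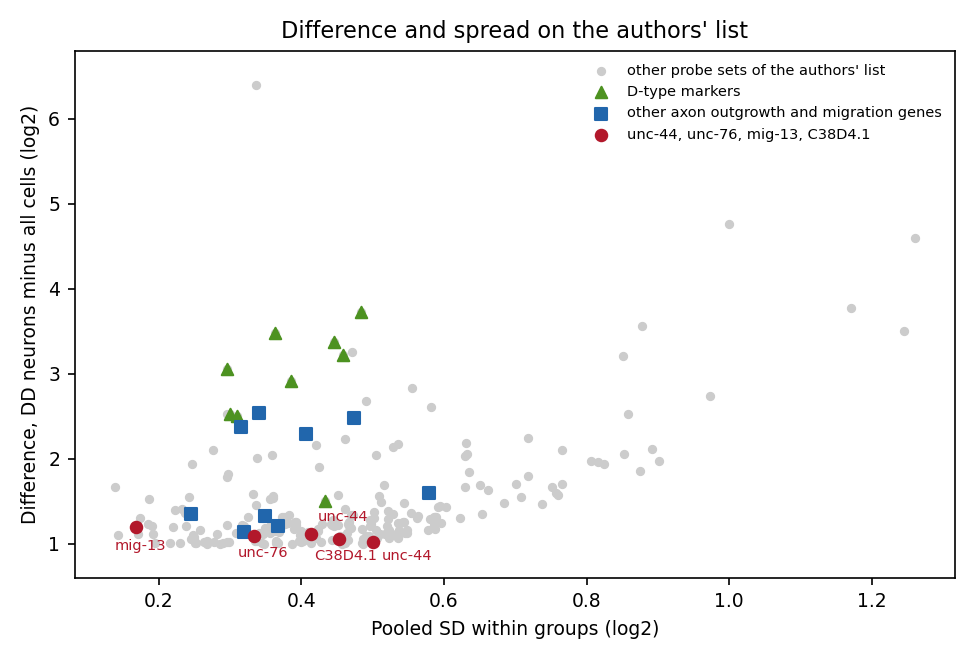
Log2 difference (DD neurons minus all cells, vertical axis) against the pooled SD within groups (log2, horizontal axis) for the 236 listed probe sets, with the members in red, other genes of axon outgrowth and migration in blue and D-type markers in green. The members lie between 1.02 and 1.20 on the vertical axis and from 0.17 (mig-13) to 0.50 (unc-44) on the horizontal axis.

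The pooled SD within groups was 0.17 for mig-13, 0.33 for unc-76, 0.41 and 0.50 for unc-44 and 0.45 for C38D4.1, against a median of 0.32 over all tested probe sets. Of all tested probe sets 14.4% had a smaller SD than mig-13, while 67.8% and 79.7% had a smaller one than the unc-44 probe sets.

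Of 106 genes on a list of axon outgrowth, guidance and migration, 11 could be named, the 4 members and 7 others. All had been selected as higher, so their direction is not independent evidence. The table's selection used this contrast, so nothing is read from how many of them passed limma. By 1 probe set per gene the 7 others had log2 differences of 1.14 to 2.54 with a median of 1.35, and 3 of them passed the limma threshold, against 0.191% of all tested. These were cle-1, a basement membrane collagen, F53B6.2 (madd-4 in the RefSeq table), whose secreted product guides muscle arms and organises synapses, and gex-3, a subunit of the WAVE complex that drives actin branching. The 2.54 ± 0.26 (SE) of cle-1 and the 2.48 ± 0.36 (SE) of F53B6.2 were larger than the difference of any member. The others were the α-spectrin gene spc-1 (1.60), the Fat-like cadherin gene cdh-4 (1.33), the Wnt gene cwn-2 (1.21) and the synaptic recognition gene syg-1 (1.14).

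**Figure D5:**
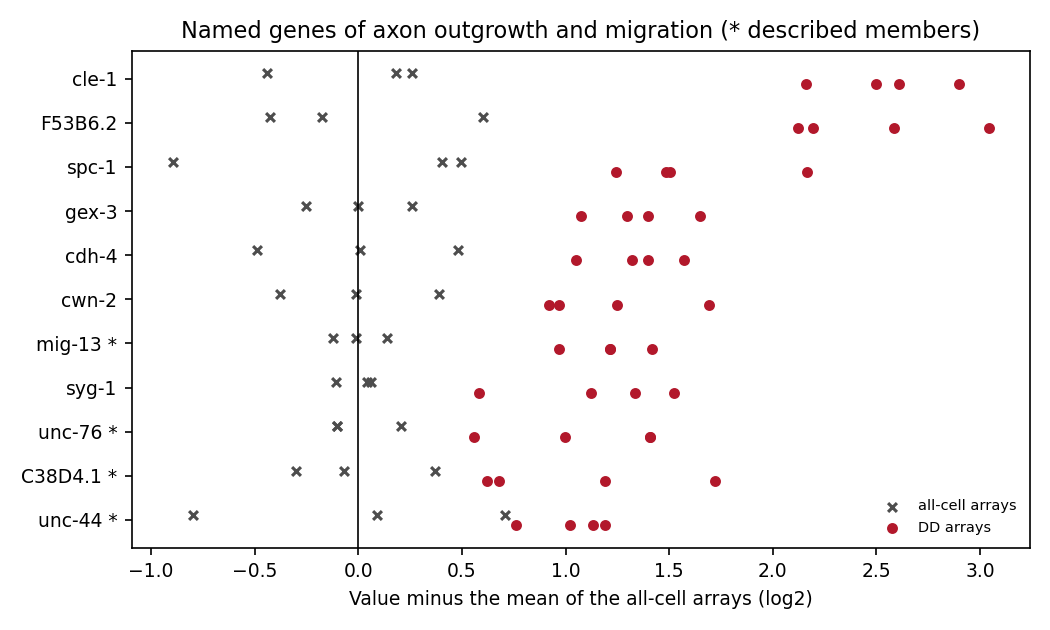
Values of the 11 named genes of axon outgrowth and migration on each array, minus the mean of the 3 all-cell arrays (log2, horizontal axis), 1 probe set per gene, with members starred. DD arrays (red) lie right of all-cell arrays (grey crosses) in every row, closest for unc-44 (x probe set, 0.05 apart). All 11 come from the table of higher probe sets, where 222 of 236 were separate, against 6.98% of all tested, so nothing is read from it.

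For genes whose products are known to work with the members, few could be named, since names came only from the authors' table of higher probe sets. The levels of the genes without a name there are not known from these values. Of 6 partners of UNC-44, spc-1 was named, whose product is part of the spectrin skeleton that ankyrins bind. It read 10.21, 10.19, 9.95 and 10.87 on the DD arrays and 9.20, 7.81 and 9.11 on the all-cell arrays. All cells replicate 2 was the low array here as it was for unc-44, but this was not particular to these genes. It was also the lowest all-cell array for gex-3, cdh-4, cwn-2, F53B6.2 and cle-1 (186657_at). That was not so for syg-1, mig-13, C38D4.1 or the other cle-1 probe set. For spc-1 the groups did not overlap, as for 6.98% of all tested and 222 of the 236 listed probe sets. Its log2 difference was 1.60 ± 0.44 (SE). Of the mig-13 pathway list of 9 genes, mig-13 and gex-3 were named, and gex-3 had a log2 difference of 1.35 ± 0.19 (SE). No gene of the unc-76 list of 6 could be named.

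By the RMS difference of centred values over the 7 arrays, with 1 probe set per gene, the named genes nearest to mig-13 were nsf-1, which takes SNARE complexes apart (0.17), the clathrin adaptor gene apb-1 (0.18) and pqn-44 (now tent-5, 0.19). Nearest to unc-76 were the presynaptic kinase gene sad-1 (0.18), the endocytic adaptor gene ehs-1 (0.19) and T06F4.1 (0.19). Nearest to unc-44 by the s probe set were the cohesin subunit gene smc-3 (0.16), Y8A9A.2 (0.16) and C05C10.2 (0.18), and by the x probe set let-805, a muscle attachment protein of the epidermis (0.16), C05C10.2 (0.16) and the condensin subunit gene mix-1 (0.17). Nearest to C38D4.1 were F34D10.4 (0.23), T23F11.2 (0.23) and F32B4.4 (now phm-2, 0.28). Every candidate came from the table of higher probe sets, so likeness here includes a group difference of similar size.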

How the data were processed

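The deposited values are log2 RMA values of Affymetrix arrays, 1 column per sample, and RMA was named in the submitters' processing notes; the version and the probe set definition were not stated. The number of arrays limits the precision. Per the file headers, the authors' deposited table also holds a score, a log2 difference, a fold change as a ratio and a q-value for each listed probe set; these were not used, and the table gave only gene names and list membership. Of its 201 genes 198 were matched to the RefSeq gene table (WBcel235) for current symbols. Array controls were left out, 77 probe sets. Differences are of group means, with the pooled SE. For the background, limma 3.58.1 (R 4.3.3) was fitted to the other 22548 probe sets on all 7 arrays without covariates, two-sided, with Benjamini-Hochberg adjustment, after a test on simulated data. Tables were made with Python 3.11.15 and pandas 2.3.3.

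The members, gene lists and tests were chosen with earlier results of these data known. The rule for named genes took the 4 members, the 3 nearest named genes of each probe set (1 probe set per gene, those without an s or x suffix first, then the highest mean), and the named genes of the lists for axon outgrowth and migration, the enu-3 family, the partners of unc-44 and unc-76, the mig-13 pathway and D-type markers. Markers of other cells were also listed. Alternatives were 3 other scalings, group medians, leaving out the dimmer probe sets (mean below the median), another variance model, a block for the replicate number, and leaving out each array. No sequences are shown, and positions of genes are not used here.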

Additional observations from a re-analysis of the deposited data

How the results depend on the processing

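Of 60 values of the 5 differences under alternatives, 59 moved by less than 1 within-group SD of their own probe set. This measure lets larger shifts pass where the spread is wide, so the count does not show stability. The x probe set of unc-44 is among the 59 with 0.62 against 1.02. The sign of the differences is no sign of stability, since the groups do not overlap and the table was selected for it. The exception was mig-13 with arrays centred on the array controls, at 0.94. All 5 probe sets shifted by -0.26 there, and mig-13 had the smallest SD, 0.17. Over the arrays left out in turn the difference was 0.76 to 1.36 for unc-44 by the s probe set, 0.62 to 1.38 by the x probe set, 0.99 to 1.27 for unc-76, 1.13 to 1.28 for mig-13 and 0.83 to 1.24 for C38D4.1. The limma counts were less stable. Without 1 array they were 6 to 23 higher and 0 to 39 lower, both lowest without DD replicate 1 (1211 and 1779 at p under 0.05 before adjustment). With arrays centred on the array controls there were 22 higher and 27 lower, with array medians 28 lower, after quantile normalization 33 lower, and with the dimmer probe sets left out 65 higher and 93 lower. The replicate block gave 2 higher and 0 lower (1444 and 2075 at an unadjusted p under 0.05). Same-numbered arrays had correlations of deviations of -0.005, 0.070 and 0.086 over probe sets, and arrays of different number -0.194 to 0.145. Whether same-numbered arrays shared a preparation is not stated in the labels and cannot be told from these values. With the block the differences were 1.18 and 1.03 for unc-44, 0.99 for unc-76, 1.20 for mig-13 and 1.18 for C38D4.1. The cause of these shifts in counts was not tested. With 3 all-cell arrays, 1 array carries much of a mean.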

Other observations

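On all cells replicate 2, the unc-44 probe sets deviated from their group mean by -0.71 and -0.80 (log2), unc-76 by -0.10, mig-13 by -0.01 and C38D4.1 by 0.37. The other 7 named genes of axon outgrowth and migration have 9 probe sets, some of them of the same gene (cle-1 and F53B6.2). Of the 9, 8 lay below their group mean on that array, against 125 of the 236 listed probe sets. On DD replicates 1 to 4 there were 7, 6, 6 and 2 of the 9, against 98, 136, 103 and 124 of the 236. On all cells replicates 1 and 3 there were 4 and 1 of the 9, against 102 and 109 of the 236. Deviations within a group sum to 0, so these counts are not independent of each other. They were made after the values had been seen and were not tested.

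With values centred on each group's mean, only the spread within groups counts. Nearest to unc-44 by the x probe set were then C05C10.2 (RMS difference 0.11), let-805 (0.16) and the cadherin gene cdh-4 (0.16). By the s probe set they were T05H10.1 (0.12), Y8A9A.2 (0.12) and smc-3 (0.16), without cdh-4. For mig-13 nsf-1 and apb-1 stayed nearest (both 0.15), followed by the potassium channel gene twk-7 (0.16). For unc-76, 1 of the 3 nearest genes, sad-1, was shared between the measures, and for each of the other probe sets 2 were.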
